A study of Rattus norvegicus with 69 samples.

Results

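Exposure to an unfamiliar environment for 24 hours was set against home cage housing in the hippocampal CA1 region of male Fischer 344 rats aged 3 to 5 months. The comparison took in 15 of the 69 arrays of the series, 1 per animal: 10 animals exposed for 24 hours (24NES, the NES standing for the stress of the unfamiliar environment) and 5 home cage controls (HC), all from cohort 1. NES animals were placed in the chambers used for sleep deprivation, with a rubber-coated grid covering the platforms that left them free to sleep, and HC animals stayed in their cages. The HC animals of this cohort had been trained on one-way active avoidance, and NES animals are not named among the trained, so training and the unfamiliar environment cannot be told apart. Rats were housed 2 per cage, the labels do not say which animals shared a chamber, and p-values treat animals as independent. The 5 HC animals also serve as controls for the other treatments of the cohort, of which 72 hours of the same stress (72NES, n = 6) and 24 hours of sleep deprivation (24SD, n = 8, trained like HC) are used below. Gene levels are MAS5 signals, a brightness per probe set scaled alike on every array, and differences are on the log2 scale as 24NES minus HC ± standard error (SE).

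CA1 is the output field of the hippocampus, and its pyramidal neurons carry recent experience into longer-lasting memory. Exploring a new place drives these neurons, and activity switches on immediate early genes within minutes and growth factor and secretory genes over the following hours. A new place is also a mild stressor. It raises circulating glucocorticoids, which act in CA1 through the glucocorticoid and mineralocorticoid receptors on target genes such as the kinase gene Sgk1 and the clock gene Per2. CA1 tissue is a mixture, so that fewer cells of a type and less RNA per cell cannot be told apart here.

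The median signal of an array was 440.1 to 484.9 in 24NES and 430.6 to 469.7 in HC. Among CA1 and other pyramidal neuron markers, Hpca, a neuronal calcium sensor, had 20745, 27817 and 41047 (lowest, median, highest) in 24NES, against 25219, 26328 and 30990 in HC. Nrgn, a postsynaptic calmodulin-binding protein, had 23113, 26472 and 34624 in 24NES, against 25926, 28202 and 34046 in HC. Slc17a7, a vesicular glutamate transporter on the same list, had 12.7, 23.0 and 37.2 in 24NES, against 21.4, 24.9 and 40.9 in HC. Its probe set lay at percentile 5.22 of mean signal, near the bottom of the array's range. In each group 1 array stood apart. 24NES animal 58 correlated with the rest of its group at a mean of 0.929, against 0.956 to 0.962 for the other 24NES animals. HC animal 3 correlated at 0.964, against 0.968 to 0.970 for the other HC animals, and had the highest GAPDH 3′ to 5′ ratio of HC (1.18). The 6 72NES animals entered the fit below only through its estimate of the spread. Among them animal 71 had a hexokinase 3′ to 5′ ratio of 6.60, against 2.01 to 2.56 in the other 5, and the lowest median signal (400.5).

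Few genes passed the adjusted test. Of 7006 probe sets with 1 gene symbol, 11 for 10 genes had a limma adjusted p under 0.05, which is 0.157%, in a fit over 21 arrays that took in 72NES. The 9 genes that rose were Col11a1, Casp6, Kcna1, Ptgs2, Nptx1, Ptprz1, Dgka, Scg2 and Cadps, and 1 gene, Akt1, fell. The adjusted p of the 11 probe sets lay between 0.0445 and 0.0491, so all of them stood just inside the threshold, and the next probe set had 0.0514. With the 15 arrays of 24NES and HC alone 1 probe set passed, without 72NES animal 71 5 passed, and with limma's trend left out, with robust eBayes or without moderation 0 passed (787, 820 and 807 at an unadjusted p of at most 0.05). Among genes in the upper 50% of signals, each by its brightest probe set (2565 genes), 11 passed. This filter kept 5 of the 11 reported probe sets, and all 5 passed. At an unadjusted p of at most 0.05, the threshold of the study's methods, 827 probe sets (11.8%) differed, 479 of them higher (6.84%) and 348 lower (4.97%) in 24NES, and their adjusted p reached 0.422. The median difference over all probe sets was -0.01, and it was 0.41 in size among the 827. Groups did not overlap for 23 probe sets higher (0.328%) and 14 lower (0.2%) in 24NES.

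**Figure D1:**
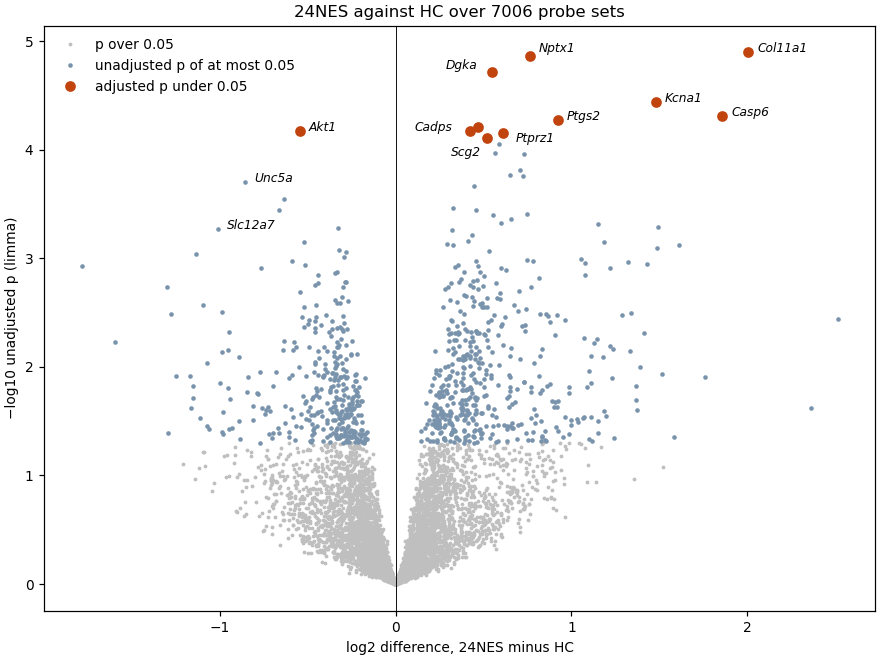
Each point is 1 of 7006 probe sets, with the log2 difference of 24NES minus HC across and minus log10 of the unadjusted limma p upward. The 11 probe sets at an adjusted p under 0.05 are orange, 10 of them on the right, and Unc5a and Slc12a7 are labelled as probe sets on the left that did not pass.

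Nptx1, a secreted pentraxin that gathers AMPA receptors at excitatory synapses, had signals of 3605, 5804 and 7094 (lowest, median and highest of 10) in 24NES, against 3444, 3720, 3261, 2740 and 3126 in the 5 HC animals. In 24NES 9 of 10 animals lay above every HC animal. Its mean log2 signal was 12.43 ± 0.31 (SD, n = 10) in 24NES and 11.66 ± 0.16 (SD, n = 5) in HC, a difference of 0.76 ± 0.14 (adjusted p = 0.0445, limma). Its other 2 probe sets differed by 0.17 ± 0.16 and -0.40 ± 0.36 and did not pass. Nptx1 is also on a list of CA3 markers, described with the other cell types.

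Ptgs2 encodes the inducible cyclooxygenase, which neurons make as an immediate early gene. Its signals were 1106, 1653 and 2097 (lowest, median, highest) in 24NES, against 1224, 769, 608, 1048 and 813 in HC. The ranges overlapped only through HC animal 1, and 8 of 10 24NES animals lay above all HC animals. The difference was 0.92 ± 0.19 (adjusted p = 0.0486), a fold of 1.90. A dimmer probe set for the same gene differed by 0.40 ± 0.16 in the same direction and did not pass (adjusted p = 0.322). The promoter of Ptgs2 is shown because this is the immediate early gene that passed. It is RefSeq sequence of build GRCr8, 250 bases before to 50 after the start, on chr13:64713813-64714112, plus strand, with the E-box CACGTG in capitals.
Ptgs2: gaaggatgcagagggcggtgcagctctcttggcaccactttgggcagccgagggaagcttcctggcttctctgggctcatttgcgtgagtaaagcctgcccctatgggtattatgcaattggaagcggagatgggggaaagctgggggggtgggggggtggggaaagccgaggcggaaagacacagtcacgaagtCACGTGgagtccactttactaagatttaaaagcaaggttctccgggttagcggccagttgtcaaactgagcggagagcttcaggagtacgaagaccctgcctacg
The E-box begins 55 bases before the start. The same letters, which read alike on both strands, are in 6.42% of 33469 promoters of this length, and of the 6 genes that rose and have a promoter in RefSeq's set, 1 held them.

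Scg2 encodes secretogranin II, a protein of the dense-core granules that store neuropeptides. Its signals were 5130, 6138 and 7288 (lowest, median, highest) in 24NES, against 4974, 4394, 4297, 4263 and 3912 in HC, so that the groups did not overlap. The difference was 0.52 ± 0.11 (adjusted p = 0.0491). The promoter of Scg2 is shown for its cAMP response element, the palindrome TGACGTCA, a binding site of the transcription factor CREB. It lies on chr9:88256817-88257116, minus strand, in GRCr8, with the element in capitals.
Scg2: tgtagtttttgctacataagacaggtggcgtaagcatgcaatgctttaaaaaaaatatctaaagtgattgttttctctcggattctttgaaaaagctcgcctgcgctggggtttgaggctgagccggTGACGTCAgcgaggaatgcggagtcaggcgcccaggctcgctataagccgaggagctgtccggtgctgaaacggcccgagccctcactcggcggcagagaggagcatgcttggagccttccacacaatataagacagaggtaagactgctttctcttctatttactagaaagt
The element begins 123 bases before the start. It occurs in 1.83% of all promoters of this length, and in 1 of the 6 that rose. A match of letters is a description and shows no binding.

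Cadps, a calcium-dependent activator that primes those dense-core granules for release, was read at 5913, 8052 and 8786 (lowest, median, highest) in 24NES. HC animals had 5744, 5543, 6372, 5447 and 5798, and 9 of 10 24NES animals lay above all of them. The difference was the smallest of those that passed, 0.42 ± 0.09 (adjusted p = 0.0486), on a bright probe set at percentile 93.4 of mean signal.

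Kcna1, a voltage-gated potassium channel of axons, had signals of 724, 986 and 1924 (lowest, median, highest) in 24NES, against 121, 485, 437, 578 and 656 in HC. The groups did not overlap, and HC animal 1 lay far below the other 4. The difference was 1.48 ± 0.29 (adjusted p = 0.0486), and 1.05 without HC animal 1 (adjusted p = 0.0621). The brighter of its probe sets differed by 0.20 ± 0.18 (adjusted p = 0.714), so the rise was seen on 1 of 2 probe sets.

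Dgka, a diacylglycerol kinase, was the gene that passed on both of its probe sets. The brighter had signals of 2911, 3348 and 4670 (lowest, median, highest) in 24NES, against 2265, 2644, 2358, 2264 and 2639 in HC, with no overlap. It differed by 0.55 ± 0.10 (adjusted p = 0.0445), and the other by 0.47 ± 0.10 (adjusted p = 0.0486). Without 24NES animal 58, whose signal on the dimmer probe set was the highest, the values were 0.53 and 0.42 and both still passed (adjusted p = 0.0478).

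Ptprz1, a receptor phosphatase of glia and glial precursors, had 554, 697 and 943 (lowest, median, highest) in 24NES, against 446, 431, 465, 584 and 455 in HC. In 24NES 9 of 10 animals lay above every HC animal, and the difference was 0.61 ± 0.13 (adjusted p = 0.0486). Its brighter probe set differed by 0.46 ± 0.17 (adjusted p = 0.273).

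Akt1, a kinase of growth factor signalling, was the gene that fell. Its signals were 1221, 1633 and 2019 (lowest, median, highest) in 24NES, against 2308, 2425, 2652, 2551 and 1918 in HC, and 8 of 10 24NES animals lay below every HC animal. The difference was -0.54 ± 0.11 (adjusted p = 0.0486). A brighter probe set for Akt1 differed by -0.16 ± 0.09 (adjusted p = 0.483).

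The largest fitted differences were on dim probe sets. Col11a1, a fibrillar collagen chain, had signals of 75.6, 124 and 182 (lowest, median, highest) in 24NES, against 34.5, 67.3, 48.7, 8.7 and 27.1 in HC. Casp6, an executioner caspase, had 128, 225 and 349 in 24NES, against 48.0, 59.7, 102, 51.9 and 49.4 in HC. Neither pair of groups overlapped. The tenth percentile of an array's signals was 28.3 to 45.1 in 24NES and 29.6 to 34.7 in HC, so HC animals 1, 4 and 5 were at or below that level for Col11a1. The differences were 2.01 ± 0.36 for Col11a1 (adjusted p = 0.0445) and 1.86 ± 0.37 for Casp6 (adjusted p = 0.0486). With signals set to at least 50, the difference of Col11a1 was 1.21. The other Col11a1 probe set differed by -0.07 ± 0.22 and the other Casp6 probe set by 0.56 ± 0.28, and neither passed.

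**Figure D2:**
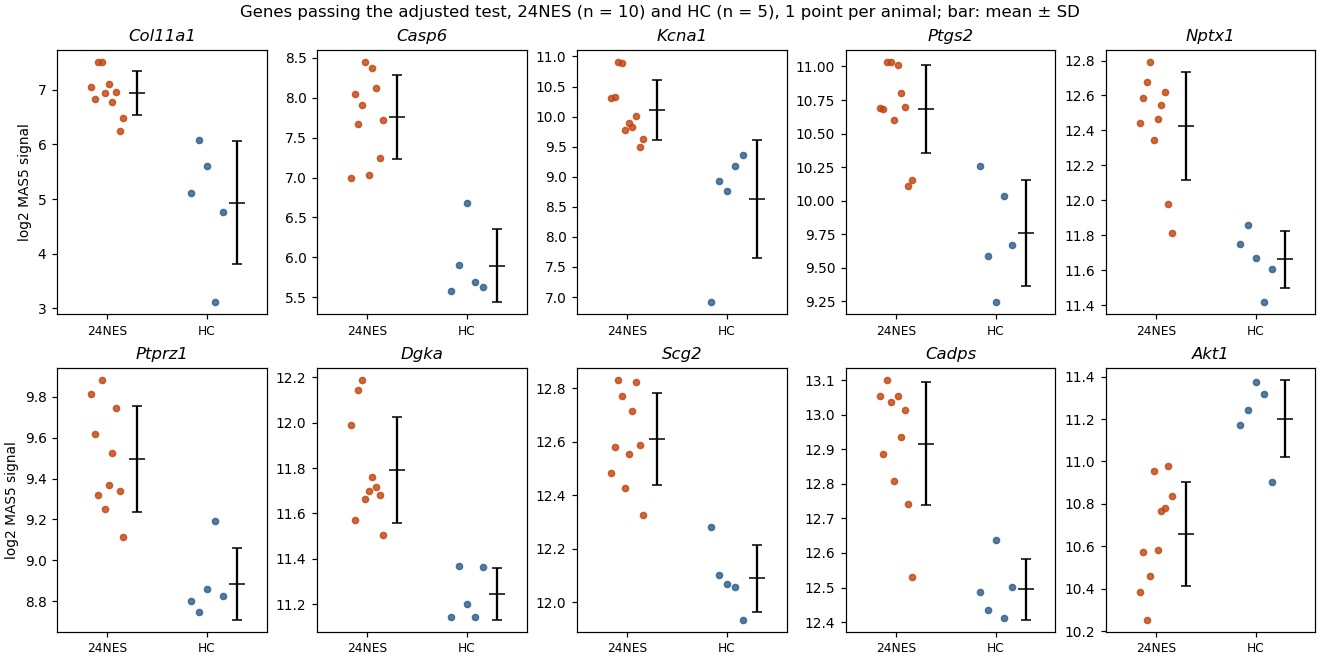
Log2 MAS5 signal of the 10 genes that passed, 1 point per animal, with 24NES (n = 10) left of HC (n = 5) and a bar for the mean ± SD. Dgka is shown by its brighter probe set. For Kcna1 the lowest HC point is animal 1 (signal 121), and for Akt1 the 24NES animals are the lower group.

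All 11 probe sets kept their direction in every alternative that tested them, and in each of the 10 24NES animals all 11 lay on the called side of the HC mean. They were chosen for their difference in these same arrays, so this was largely set by the choice and is a description only. The calls did not hold when single animals were left out of the limma fit. Leaving out HC animal 1, 3, 4 or 5 left 0 calls, and leaving out HC animal 2 left 1. Leaving out any 1 of 24NES animals 59 to 65 left 0, while 5 remained without animal 58, and 35 and 27 probe sets passed without animals 66 and 67. Between 677 and 970 probe sets had an unadjusted p of at most 0.05 in these fits. The adjusted p of the 11 probe sets in them ran from 0.00602 to 0.185. Without 24NES animal 58 and HC animal 3 together, 0 passed, 869 had an unadjusted p of at most 0.05, and all 11 were among them.

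**Figure D3:**
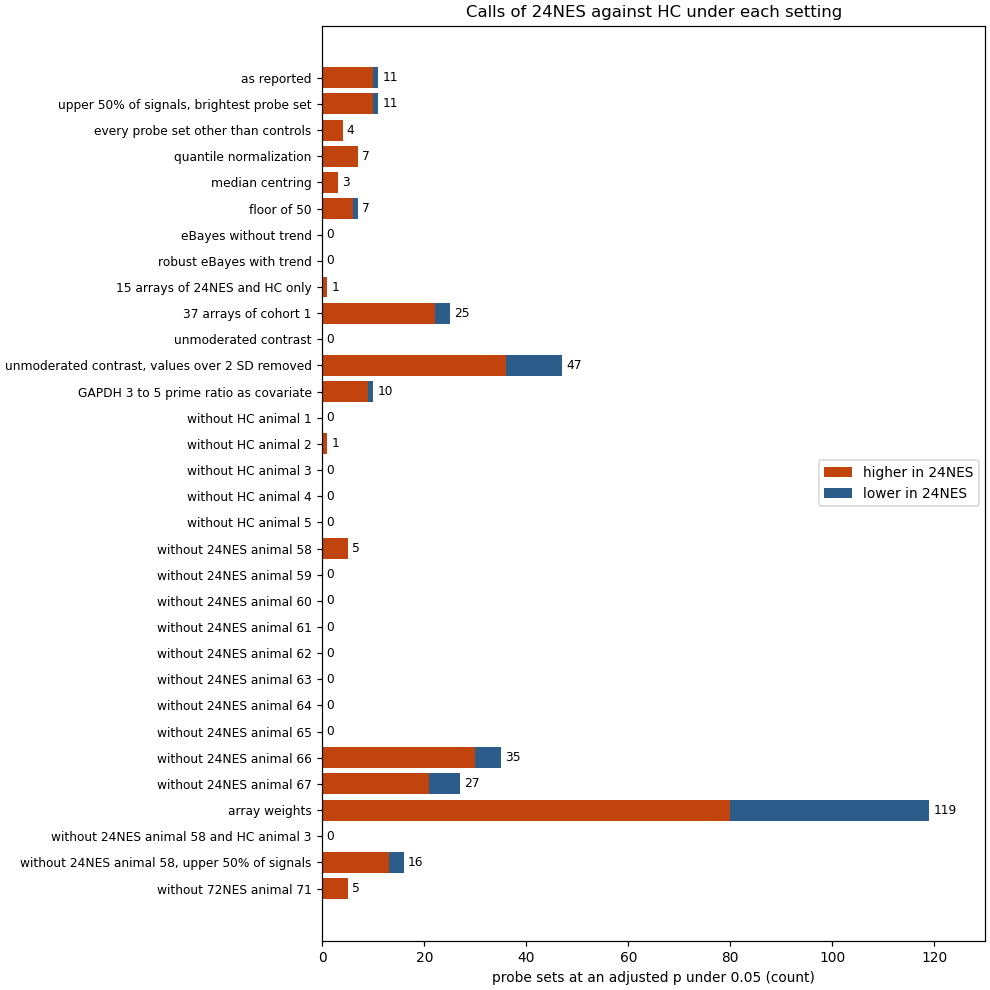
Number of probe sets at an adjusted p under 0.05 in each fit, with those higher in 24NES in orange and those lower in blue. The reported fit has 11, fits without 1 animal run from 0 to 35, and array weights give 119.

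Beyond Akt1, the probe sets with the smallest p among those lower in 24NES did not pass. Unc5a, a netrin receptor of growing axons, had 679, 1068 and 1515 (lowest, median, highest) in 24NES, against 1628, 1941, 1977, 1747 and 1996 in HC. The groups did not overlap, and the difference was -0.85 ± 0.19 (adjusted p = 0.0779). It passed among the upper 50% of signals (adjusted p = 0.0402) and with the GAPDH 3′ to 5′ ratio as a covariate (adjusted p = 0.0349). Gstp1, a glutathione transferase, differed by -0.63 ± 0.15 (adjusted p = 0.0988), again with no overlap, while its brighter probe set differed by -0.17 ± 0.12. Atn1 had -0.66 ± 0.16, Adcy5, an adenylyl cyclase, -0.33 ± 0.08, and Slc12a7, a potassium-chloride cotransporter, -1.01 ± 0.25 (adjusted p = 0.11, 0.12 and 0.12). Adcy5 and Slc12a7 did not overlap between the groups.

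Genes were also read in lists, each gene by its brightest probe set. Over all 4736 genes, 6.65% were higher and 5.26% lower in 24NES at an unadjusted p of at most 0.05 (11.9% in all), and the median difference was -0.01. Members at that threshold are called here nominally higher or lower. Counts without 24NES animal 58, and without both it and HC animal 3, are added where they differ. The counts over all genes moved too. They were 315 higher and 249 lower in the reported fit, 363 and 295 without 24NES animal 58, and 312 and 297 without both animals. A list count that moves in those fits is to be read beside these. The list members that passed the adjusted test were Ptgs2, Scg2, Nptx1 and Col11a1.

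Among 28 measured activity-induced immediate early genes, 8 were nominally higher and 2 lower (35.7%), with a median difference of 0.11. In all, 18 had a difference above 0 and 10 below. The members described next are not among the 2 nominally lower ones. Without 24NES animal 58 there were 8 and 1 and the median was 0.06, and without both animals there were 8 and 2 and the median was 0.05. Bdnf, the main activity-dependent neurotrophin, had 570, 1041 and 1527 (lowest, median, highest) in 24NES, against 876, 367, 345, 689 and 707 in HC. The groups overlapped, and the difference was 0.81 ± 0.23 (adjusted p = 0.149). Of its 7 probe sets, 3 were nominally higher and 6 had a difference above 0. Dusp6, a phosphatase induced by ERK, differed by 0.39 ± 0.11 and Rheb, a small GTPase upstream of mTOR, by 0.27 ± 0.08 (adjusted p = 0.143 and 0.168). Homer1, a postsynaptic scaffold with an activity-induced short form, differed by 0.08 ± 0.09 on the brightest of 6 probe sets (0.04 without 24NES animal 58, 0.05 without animal 59 and 0.14 without HC animal 3), all 6 of which had a difference above 0 and 2 of which were nominally higher (0.32 ± 0.14 and 0.26 ± 0.12).

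Among 11 clock genes, 1 was nominally higher and 0 lower (9.09%), and the median was 0.02. Without 24NES animal 58 and without both animals 2 were nominally higher, and without both the median was -0.02. That gene was Per2, a core repressor of the clock that glucocorticoids also induce. Its signals were 600, 852 and 1342 (lowest, median, highest) in 24NES, against 471, 516, 545, 536 and 578 in HC, so that every 24NES animal lay above every HC animal. The difference was 0.75 ± 0.18 and did not pass (adjusted p = 0.113), though it passed in the fit over 37 arrays of cohort 1 (adjusted p = 0.0214). Nr1d2, another clock repressor, differed by 0.37 ± 0.21 (adjusted p = 0.519).

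Of 14 glucocorticoid-induced genes, 4 were nominally higher and 2 lower (42.9%), with a median of 0.14. The median was 0.08 without 24NES animal 58, and without both animals it was 0.16 and the counts were 5 and 2. Sgk1, a kinase that stabilizes ion channels, had 1784, 2652 and 4314 (lowest, median, highest) in 24NES, against 1836, 1751, 1955, 2053 and 2284 in HC. In 24NES 9 of 10 animals lay above every HC animal, and the difference was 0.52 ± 0.17 (adjusted p = 0.19). Sult1a1, a sulfotransferase, differed by 0.40 ± 0.14 and Cebpb, a transcription factor, by 0.36 ± 0.12. The other direction was seen for 2 members of the same list, Cebpd with -0.36 ± 0.13 and Hsd11b1, the enzyme that regenerates corticosterone in cells, with -0.24 ± 0.10. Nr3c1, the glucocorticoid receptor, had 0.22 ± 0.17 on the brightest of 3 probe sets and differences below 0 on the other two, and Nr3c2, the mineralocorticoid receptor, had 0.17 ± 0.13 and 0.27 ± 0.19 on its 2 probe sets (adjusted p = 0.651, 0.65 and 0.631). Without HC animal 3, Nr3c1 had 0.07 and the first Nr3c2 probe set 0.09.

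Lists for RNA handling and protein folding had medians above 0. Of 22 RNA-binding proteins, 19 had a difference above 0, 7 were nominally higher and 0 lower (31.8%), with a median of 0.19. There were 9 nominally higher without 24NES animal 58, and without both animals 6. Ybx3, a cold-shock domain protein, differed by 0.44 ± 0.11, the splicing regulators Celf2 by 0.37 ± 0.11 and Hnrnpa1 by 0.39 ± 0.14. Hnrnpu differed by 0.29 ± 0.11, and by 0.13 without HC animal 3, which had the lowest signal. Cirbp, the cold-inducible protein after which the list was named, had -0.17 ± 0.13 (adjusted p = 0.652).

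Of 21 heat shock proteins, 17 had a difference above 0, 3 were nominally higher and 0 lower (14.3%), and the median was 0.15. Without 24NES animal 58 and without both animals, 4 were nominally higher and 1 lower. Cryab, a small heat shock protein, differed by 0.40 ± 0.14, Hspa4 by 0.32 ± 0.11 and the mitochondrial chaperonin Hspd1 by 0.25 ± 0.10. Among 16 endoplasmic reticulum chaperones and stress sensors, 3 were nominally higher and 0 lower, with a median of 0.08. When 24NES animal 58 was left out 2 were higher, and without both animals the median was 0.04. Eif2ak3, the PERK kinase, differed by 0.88 ± 0.27, but by 0.44 without HC animal 3, whose signal of 116 lay below the 497 to 586 of the other HC animals. Dnajb9 differed by 0.45 ± 0.20 and Hspa5, the BiP chaperone, by 0.21 ± 0.10, or by 0.13 without HC animal 2. Of 28 proteasome and ubiquitin genes, 5 were nominally higher and 1 lower (21.4%), with a median of 0.02. The counts were 5 and 0 without 24NES animal 58, and without both animals 4 and 1. The 4 with the smallest p were subunits of the alpha ring of the proteasome core: Psma2 (0.56 ± 0.12), Psma1 (0.30 ± 0.09), Psma6 (0.25 ± 0.10) and Psma4 (0.23 ± 0.10). Psma2 had an adjusted p of 0.0553, while its other 2 probe sets differed by 0.08 ± 0.08 and 0.12 ± 0.13. It passed among the upper 50% of signals (0.036), in the fit over 37 arrays (0.0137), with the GAPDH ratio as a covariate (0.0405) and without moderation after values over 2 SD were removed (0.0474).

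Genes of presynaptic vesicle release had a median below 0. Of 50 measured, 35 had a difference below 0, 8 were nominally lower and 1 higher (18%), with a median of -0.11. There were 10 nominally lower and 2 higher without 24NES animal 58, and without both animals 8 and 1. Vamp2, the vesicle SNARE synaptobrevin, had 11929, 17702 and 22586 (lowest, median, highest) in 24NES, against 20269, 23161, 21974, 22250 and 20053 in HC. In 24NES 8 of 10 animals lay below every HC animal, and the difference was -0.35 ± 0.12 (adjusted p = 0.237). Dnm1, the dynamin of vesicle retrieval, differed by -0.23 ± 0.09 and Syt5, a synaptotagmin, by -0.37 ± 0.14. Stx7, a syntaxin of endosomes, was the member nominally higher, with 0.52 ± 0.20. The summed signal of 9 pan-neuronal markers was 138200 to 169020 in 24NES and 147310 to 169130 in HC (exact permutation test, two-sided, p = 0.104), and its part in the list was not tested.

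Neuropeptides and granule proteins, to which Scg2 belongs, had 4 nominally higher and 0 lower of 26 (15.4%) and a median of 0.02. Omitting 24NES animal 58, there were 2 and 0 with a median of 0.05, and without both animals 3 and 1. Penk, the enkephalin precursor, differed by 0.30 ± 0.11, Tac3, a tachykinin precursor, by 0.28 ± 0.13 (0.16 without HC animal 3) and Chgb, another granin, by 0.20 ± 0.09. Among 43 potassium channels 4 were nominally higher and 4 lower (18.6%), with a median of 0.00, and 4 and 3 without both animals. The fast-spiking channels Kcnc1 and Kcnc2 had 0.44 ± 0.13 and 0.30 ± 0.11, while Kcnh3 had -0.28 ± 0.10 and the auxiliary subunit Kcnab2 -0.23 ± 0.08. Of 14 voltage-gated calcium channel subunits, 2 were nominally higher and 1 lower, the pore subunits Cacna1h (0.60 ± 0.17) and Cacna1c (0.40 ± 0.12) being the higher ones.

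Receptor subunits were mixed. Of 15 ionotropic glutamate receptor subunits 2 were nominally higher and 2 lower, with Gria2, the AMPA subunit that blocks calcium entry, at 0.35 ± 0.11 and the NMDA subunit Grin2c at -0.30 ± 0.12. With 24NES animal 58 left out the counts were 3 and 1, and without both animals 2 and 0. Of 15 GABA receptor subunits 0 were nominally lower and 2 higher, Gabra5, the extrasynaptic subunit enriched in the hippocampus (0.32 ± 0.09), and Gabrb1 (0.26 ± 0.11). Among 24 postsynaptic scaffolds 2 were nominally lower, Dlgap3 (-0.53 ± 0.16) and Nlgn3 (-0.78 ± 0.31), and 0 higher (8.33%). Leaving out 24NES animal 58, there were 3 lower and 0 higher, and without both animals 1 lower and 2 higher.

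For axon growth, guidance and differentiation, 3 of 47 genes were nominally higher and 6 lower (19.1%), with a median of -0.06. Omitting 24NES animal 58, there were 4 and 7, and without both animals 3 and 5. The lower ones included the netrin receptors Unc5a, given above, and Unc5b (-0.34 ± 0.11), and the higher ones Neurod1, a neuronal transcription factor (0.50 ± 0.14), and Pax6 (1.13 ± 0.37, on a probe set at percentile 15.7 of mean signal, or 0.65 without HC animal 5). Of 29 cytoskeletal and motor genes, 4 were nominally higher and 2 lower, among them the dynein chain Dync1i2 (0.60 ± 0.15), Map2 (0.32 ± 0.10) and the tubulin Tubb5 (-0.29 ± 0.07). With 24NES animal 58 left out those counts were 4 and 3, and without both animals 3 and 2. Of 20 translation factors 3 were nominally lower and 0 higher, Eef1a2 (-0.44 ± 0.12), Eif3d (-0.42 ± 0.13) and Eif2b4 (-0.26 ± 0.11). Leaving out 24NES animal 58, there were 3 lower and 1 higher, and without both animals 2 lower and 1 higher. Of 24 glycolytic genes 2 were nominally higher and 2 lower, the platelet phosphofructokinase Pfkp at 0.33 ± 0.08, the liver form Pfkl at -0.34 ± 0.13 and hexokinase Hk1 at -0.29 ± 0.08 among them. Omitting 24NES animal 58, there were 2 higher and 4 lower, and without both animals 2 and 3. Of 37 genes of the extracellular matrix 1 was nominally higher and 3 lower (10.8%), 1 and 4 without 24NES animal 58, and 2 and 2 without both animals. Mmp14, a membrane metalloprotease, had -0.51 ± 0.14, the metalloprotease inhibitor Timp2 -0.34 ± 0.12 and Sparcl1 -0.24 ± 0.11 (-0.15 without HC animal 3), and Col11a1 was the member that rose. S100a1, a calcium sensor found near synaptic vesicles, had differences below 0 on all 4 probe sets, from -0.51 to -0.14, of which 3 were nominally lower.

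**Figure D4:**
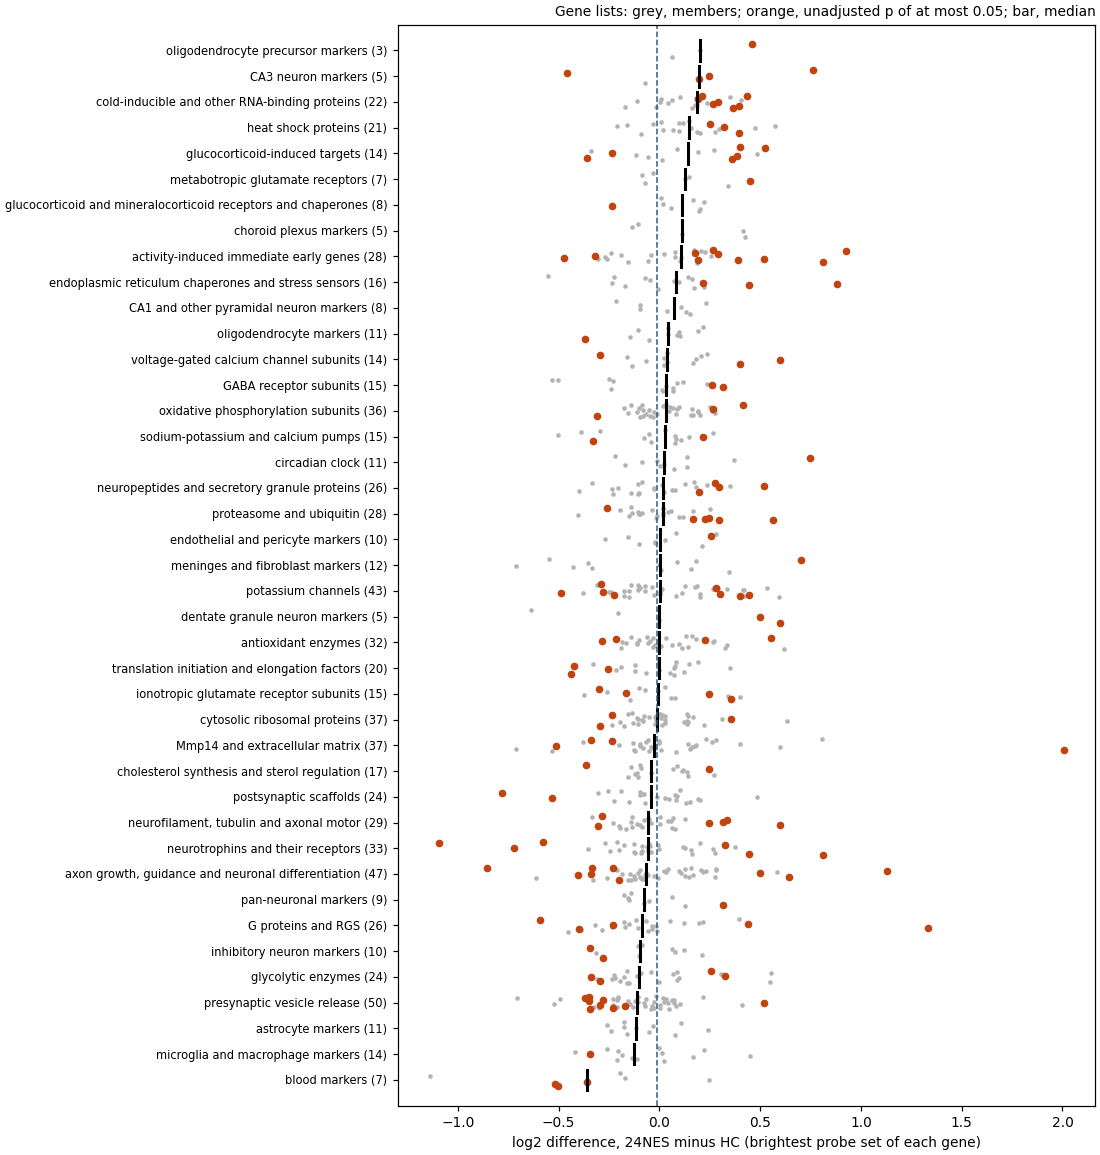
Log2 difference of 24NES minus HC for each measured gene of the 41 lists (number of genes in brackets), by its brightest probe set. Grey points are members, orange points members at an unadjusted p of at most 0.05, black bars list medians, and the dashed line the median of all 4736 genes (-0.01). Oligodendrocyte precursor markers (0.20), CA3 markers (0.20), RNA-binding proteins (0.19) and heat shock proteins (0.15) are at the upper end. Blood markers (-0.36), microglial markers (-0.12), astrocyte markers (-0.11) and presynaptic genes (-0.11) are at the lower.

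Summed signals of 13 lists of cell markers were compared per array, and none passed after adjustment over 18 values per array. Among 7 blood markers, 3 were nominally lower and 0 higher, with a median of -0.36, and 2 were lower without both animals. Their summed signal was 6808 to 16411 in 24NES and 15732 to 18198 in HC (exact permutation test, two-sided, p = 0.0206, adjusted p = 0.186), with lower values for the globins Hbb (-0.52 ± 0.21) and Hbb-b1 (-0.36 ± 0.16). Summed endothelial and pericyte markers were 9648 to 12457 in 24NES and 8988 to 10534 in HC (exact p = 0.00699, adjusted p = 0.126), where Slc2a1, the glucose transporter of the vessel wall that is also on the glycolysis list, was the 1 nominally higher member of 10 (0.26 ± 0.10). The list had 5 members above 0 and 5 below, with a median of 0.00. Slc2a1 had a median signal of 7195 in 24NES and 5878 in HC, and a dimmer Slc2a1 probe set differed by -0.45 ± 0.14. Summed oligodendrocyte precursor markers were 3411 to 6619 in 24NES and 3583 to 4144 in HC (exact p = 0.0413, adjusted p = 0.186), over 3 genes of which Ptprz1 is 1 and Pdgfra another (0.20 ± 0.20, or 0.30 without 24NES animal 58 and 0.11 without HC animal 2). Summed microglial markers were 17350 to 26284 in 24NES and 23908 to 26239 in HC (exact p = 0.036, adjusted p = 0.186). The brightest member, Ctss, made up most of that sum, with 9636, 15615 and 17203 (lowest, median, highest) in 24NES, against 15366, 16401 and 17596 in HC. Of the 14 members 5 had a difference above 0 and 9 below, with a median of -0.12. Cx3cr1, a much dimmer member, was nominally lower (-0.34 ± 0.15), and 3 members were nominally lower without both animals. The part of these cells in the genes that passed was not tested.

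Neighbouring hippocampal fields and interneurons were checked in the same way. Of 5 CA3 markers, 3 were nominally higher, Nptx1, Chgb and Grik4 (0.24 ± 0.11), and Nnat was nominally lower (-0.46 ± 0.16), with 2 higher without 24NES animal 58, while their summed signal was 33028 to 44728 in 24NES and 32967 to 43105 in HC (exact p = 0.507). Of 5 dentate markers 2 were nominally higher, Neurod1 and Il1rap (0.60 ± 0.19), and the sums were 7171 to 11623 in 24NES and 7775 to 9264 in HC (exact p = 0.685). Of 10 inhibitory neuron markers 2 were nominally lower, the vesicular GABA transporter Slc32a1 (-0.34 ± 0.09) and Calb2 (-0.28 ± 0.14), with sums of 35823 to 43215 in 24NES and 39166 to 42562 in HC (exact p = 0.316). None of the 8 pyramidal neuron markers and none of the 11 astrocyte markers reached an unadjusted p of 0.05, except 1 astrocyte marker, lower, without 24NES animal 58.

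The 24NES animals were also set against the longer exposure and against sleep deprivation of the same length, in a limma fit over the 37 arrays of cohort 1. Against 72NES, 0 of 7006 probe sets passed, and 663 (9.46%) had an unadjusted p of at most 0.05, 349 higher (4.98%) and 314 lower (4.48%) in 24NES. Here 72NES animal 71 enters the 72NES mean. Without that animal 0 passed and 557 had such a p, and without 24NES animal 58 the counts were 0 and 785. The 6 genes with the smallest p were Ssbp1 (0.46 ± 0.11 as 24NES minus 72NES), Gp5 (1.49 ± 0.36), Gch1 (-1.69 ± 0.41), Ptpn11 (1.81 ± 0.44), Sycn (-1.06 ± 0.26) and Kcna2 (1.70 ± 0.42), all with an adjusted p of 0.236 and all but Ssbp1 on dim probe sets below the upper 50% of signals. A p that misses the threshold does not show that the exposures act alike.

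Against 24SD, 1 of 7006 probe sets passed (0.0143%) and 439 (6.27%) had an unadjusted p of at most 0.05, 3.73% of all being higher and 2.54% lower in 24NES. The 24SD animals were trained on active avoidance, and NES animals are not named among the trained. Training and sleep deprivation therefore cannot be told apart in this comparison. Sult1a1, a phenol sulfotransferase inducible by glucocorticoids, was lower in 24NES, with 1030, 1662 and 2225 (lowest, median, highest), against 2119.5, 2602 and 2927 in 24SD. The ranges overlapped at their ends, and the difference of 24NES minus 24SD was -0.63 ± 0.11 (adjusted p = 0.00948). Its other probe set gave -0.54 ± 0.13 (adjusted p = 0.204). The next genes by p, none of which passed, were L3hypdh (1.87 ± 0.39, on a probe set at percentile 9.75 of mean signal), Tnfrsf11b (1.20 ± 0.27), Hsd11b1 (-0.33 ± 0.08), Atp5f1d (-0.36 ± 0.09) and Eif2ak2 (0.51 ± 0.12), with adjusted p from 0.0767 to 0.204. Sgk1 averaged 11.47 ± 0.39 (SD) in 24NES and 11.76 ± 0.33 (SD) in 24SD on the log2 scale, with a 95% interval of the difference from -0.59 to 0.01.

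The genes that passed against HC were chosen for high or low 24NES values, so their differences from 72NES and 24SD are given as a description. The means of all 10 genes in 72NES and in 24SD lay between those of 24NES and HC. Nptx1 averaged 12.43 in 24NES, 12.16 in 72NES, 12.37 in 24SD and 11.66 in HC, so that 24SD lay close to 24NES. Casp6 averaged 7.75 in 24NES, 6.45 in 72NES, 6.63 in 24SD and 5.90 in HC, so that 24NES stood higher than the other exposures. The Casp6 signal of 72NES animal 71 was 347.2, against 52.2 to 132.9 in the other 5, without which the 72NES mean was 6.06, nearer to HC. For Ptgs2 the same animal had 819.1, against 1306 to 1861 in the other 5. All of these exposures are set against the same 5 HC animals, and overlap between them was not assessed.

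**Figure D5:**
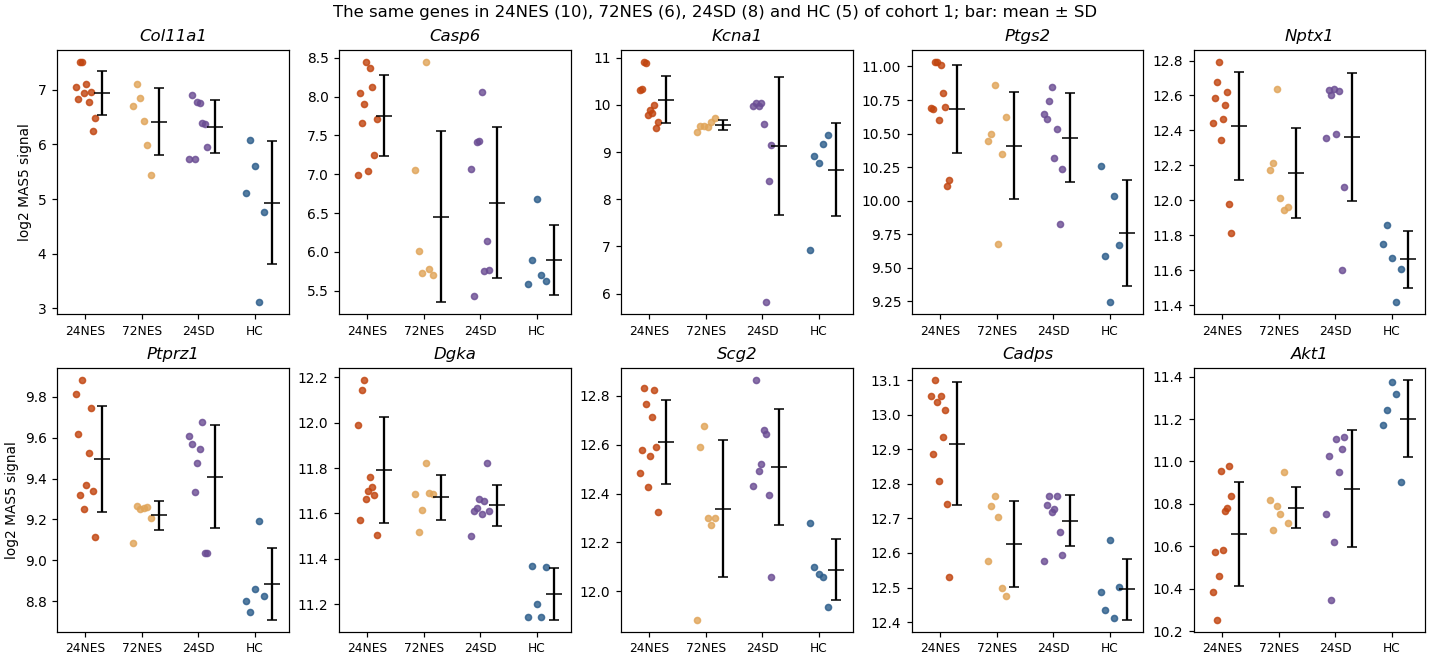
Log2 MAS5 signal of the 10 genes that passed against HC, in 24NES (n = 10), 72NES (n = 6), 24SD (n = 8) and HC (n = 5) of cohort 1, 1 point per animal with the mean ± SD. For each gene the 72NES and 24SD means lie between those of 24NES and HC.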

How the data were processed

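CA1 RNA from each of 69 rats was read on its own Affymetrix rat array, and 15 of the arrays were compared. The authors computed the deposited intensity values in MAS5, whose version is not given in the sources used here: 1 per probe set on a linear scale, scaled to a trimmed mean of 1502 on every array as deposited. Detection calls and scanner background are not used here, so dim probe sets could not be called absent. The number of arrays limits the precision. Of 8799 probe sets, 59 are controls, 7006 have 1 symbol in the platform annotation (4736 genes), 308 several and 1426 none, and 6985 of the 7006 matched RefSeq by gene number. Genes with several probe sets (1565) were tested by each.

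Signals were set to at least 1 and log2 transformed. Group means were fitted with limma 3.58.1 in R 4.3.3 (lmFit, eBayes with trend) over 21 arrays (24NES, 72NES and HC), and over 37 for 24NES against 72NES and 24SD, with Benjamini-Hochberg adjustment over 7006 probe sets. Thresholds were 0.05, adjusted or unadjusted. Single values per array had an exact permutation test over 3003 splits. Promoters are those of RefSeq (GRCr8). Python 3.11.15 was used for summaries and figures. In simulated data for 24NES against HC (7006 probe sets), 50 were changed by each of 0.5, 1, 1.5 and 2, with noise independent between probe sets. There limma recovered 44% of log2 changes of 0.5, 56% of 1 and 92% of 1.5, and 11 of 153 calls were false. The real comparison had 11 calls, so a call there needed a smaller p, and these shares do not carry over to it.

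Genes named are up to 12 largest changes in each direction that passed on brighter probe sets, the 6 with the smallest p in each direction and in each other comparison, and 2 to 4 members of a list with the smallest p. A few more were named because the study of these data names them or because they encode the corticosteroid receptors (of these Ednrb was not analysed here). Members, lists (28 of pathways, 13 of cell markers) and rule were chosen with earlier results of these data known. Alternatives changed the filter, scaling, floor, moderation, arrays and covariate, and left out each animal in turn.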

Additional observations from a re-analysis of the deposited data

Results flagged for a closer look

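Signals far from the rest of their group, by Dixon's test, were found for 20 of 216 groups of values examined, and chance flags about 1 in 20. HC animal 3 accounts for 6 of them: Casp6 at 102, Eif2ak3 at 116, Nefh (a neurofilament) at 1330, Hnrnpu at 2920, Homer1 at 3880, and a mean correlation with its group of 0.964. 24NES animal 58 accounts for 5: Dgka at 3380, Eif3d at 1670, Hsd11b1 at 3410, Pdgfra at 1100 and a mean correlation of 0.929. Among the other 24NES animals, animal 66 was low for Atn1 (1270), Cacna1h (446) and Sult1a1 (1030), animal 61 was low for Gstp1 (1600), and animal 60 had a GAPDH 3′ to 5′ ratio of 1.09. In HC, animal 1 was low for Kcna1 (121), animal 4 was high for Ptprz1 (585) and Timp2 (4270), and animal 5 was high for Gabrb1 (4460).

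Sult1a1 differed between 24 hours of the unfamiliar environment and 24 hours of sleep deprivation, by -0.63 as 24NES minus 24SD (adjusted p = 0.00948, limma). The 24SD animals were trained and NES animals are not named among the trained, so training and sleep deprivation cannot be told apart.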

How the results depend on the processing

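Leaving out each animal in turn gave 0 to 35 calls, 677 to 970 probe sets at an unadjusted p of at most 0.05, and 17 to 26 of 41 lists with a median above 0 (22 in the reported fit). The 11 calls became 4 over every probe set other than controls, 7 after quantile normalization, 3 after median centring, 7 with a floor of 50, and 0 without the trend, with robust eBayes or without moderation of limma's fit (787, 820 and 807 probe sets at an unadjusted p of at most 0.05). They became 1 with the 15 arrays of 24NES and HC, 25 with 37 arrays, and 47 without moderation after values over 2 SD were removed. Chosen after seeing the data, array weights gave 119 calls, leaving out 24NES animal 58 and HC animal 3 gave 0 (869 at an unadjusted p), and leaving out 72NES animal 71 gave 5. The count at an unadjusted p was 411 in the upper 50% of signals (2565 genes), 486 there without 24NES animal 58 and 1259 with array weights, against 827, the filter testing fewer genes. Against 24SD, the 1 call became 3 over every probe set, 3 with the arrays of the groups compared and 2 without 24NES animal 58. Where a change has no stated cause, the cause was not tested. Of the named probe sets that did not pass, 12 passed in at least 1 other fit that kept every animal (Psma2, Unc5a, Gstp1, Pfkp, Per2, Dync1i2, Adcy5, Ybx3, Tubb5, Hk1, Dusp6 and Cacna1h). The 102 probe sets named kept their direction in every alternative, which was largely set by the choice, as many were named for a small p in these same arrays. No paired analysis was possible because no animal number is shared between groups.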
